A study of Mus musculus with 3 samples.

Results

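Semaphorins, plexins, neuropilins, ephrins and Eph receptors were examined on 3 mouse arrays. The group was taken by symbol: every probe set whose single annotated symbol names a semaphorin, a plexin, Nrp1 or Nrp2, an ephrin, or an Eph receptor of the A or B class. This gave 52 genes of 22180 named on the arrays, read by 55 probe sets. They comprised 20 semaphorins, 9 plexins, 2 neuropilins, 8 ephrins and 13 Eph receptors; Ephb2 was not analysed here. The rule uses symbols and no measured value, but it was set with earlier results of these data known.

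The arrays held total RNA from FULA 1, a mouse lung adenocarcinoma line, from the lung of FVB mice injected with saline, and from the lung of FVB mice injected with urethane, a carcinogen that gives mice lung tumours. FVB is an inbred strain. The urethane was given intraperitoneally 1 week before the lung was taken, and FULA 1 was grown in DMEM with 10% fetal bovine serum. No engineered allele or further agent is named for any group; the age and number of the mice, the time of the saline lung and the origin of the line are unstated in the labels. With 1 array a group there is no replicate error and no test, and each statement below is about these 3 arrays.

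Semaphorins are secreted or membrane-bound signals that steer axons, migrating cells and growing vessels. Their receptors are plexins, which act on small GTPases inside the cell; most secreted class 3 semaphorins need a neuropilin beside the plexin to bind. Ephrins are cell-surface ligands of the Eph receptor tyrosine kinases and signal between touching cells, in both directions. In the lung both systems are known for vessel patterning, branching of airways and alveoli, and immune cell traffic, and several members have been studied in tumours as promoters or brakes of invasion and vessel growth.

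The deposited log2 values did not share a scale. Their medians over 41345 probe sets were 4.96 on FULA 1, 0.08 in saline lung and 1.22 in urethane lung, so the arrays were quantile-normalized, and percentile ranks among all probe sets of an array, which depend on order alone, stand beside the normalized values. A gene was counted as above background where its normalized value exceeded the 95th percentile of 1105 olfactory receptor genes on the same array. This mark lay at 1.96 on FULA 1 (percentile rank 46.5), 2.46 in saline lung (59.7) and 2.44 in urethane lung (59.2). A gene was called higher or lower where 2 arrays differed at least 2-fold, 1 on the log2 scale, with the higher value above its mark. Where the lower value lay below its mark the difference is also given as a bound, with the mark in its place. The labels were checked against marker lists: all 10 alveolar type II, 10 alveolar type I and 14 endothelial markers lay above the mark on both lungs. On FULA 1 all 10 pan-epithelial and all 7 measured cell division genes did, against 9 and 5 on each lung. The pan-epithelial list did not separate the arrays, with median percentile ranks of 75.1 on FULA 1 and 73.9 and 80.9 in the lungs. On FULA 1 8 of the 10 alveolar type II and 7 of the 10 alveolar type I markers were also above the mark. The type II median rank was 53.4 there, against 97.3 and 97.0 in the lungs. The type I median rank was 62.8, against 92.5 and 93.1.

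Most of the guidance genes were above background. On FULA 1 42 of the 52 lay above the mark (80.8%, against 58.2% of all genes), of the saline lung's values 34 did (65.4%, against 49.5%), and of the urethane lung's 38 (73.1%, against 48.9%). In all, 30 genes (57.7%, against 39.5% of all genes) were above the mark on all 3 arrays. Another 7 were above it on FULA 1 alone, where 12.3% of all genes were, and 3, namely Sema3d, Sema4f and Plxnc1, on both lungs but not on FULA 1 (5.77%, against 4.64%); both shares lie near those of all genes. The 6 genes that stayed below it on every array (11.5%, against 33.4%) were Plxnb3, Epha1, Epha3, Epha5, Epha6 and Ephb1. No size is given for these 6 as averaged.

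**Figure D1:**
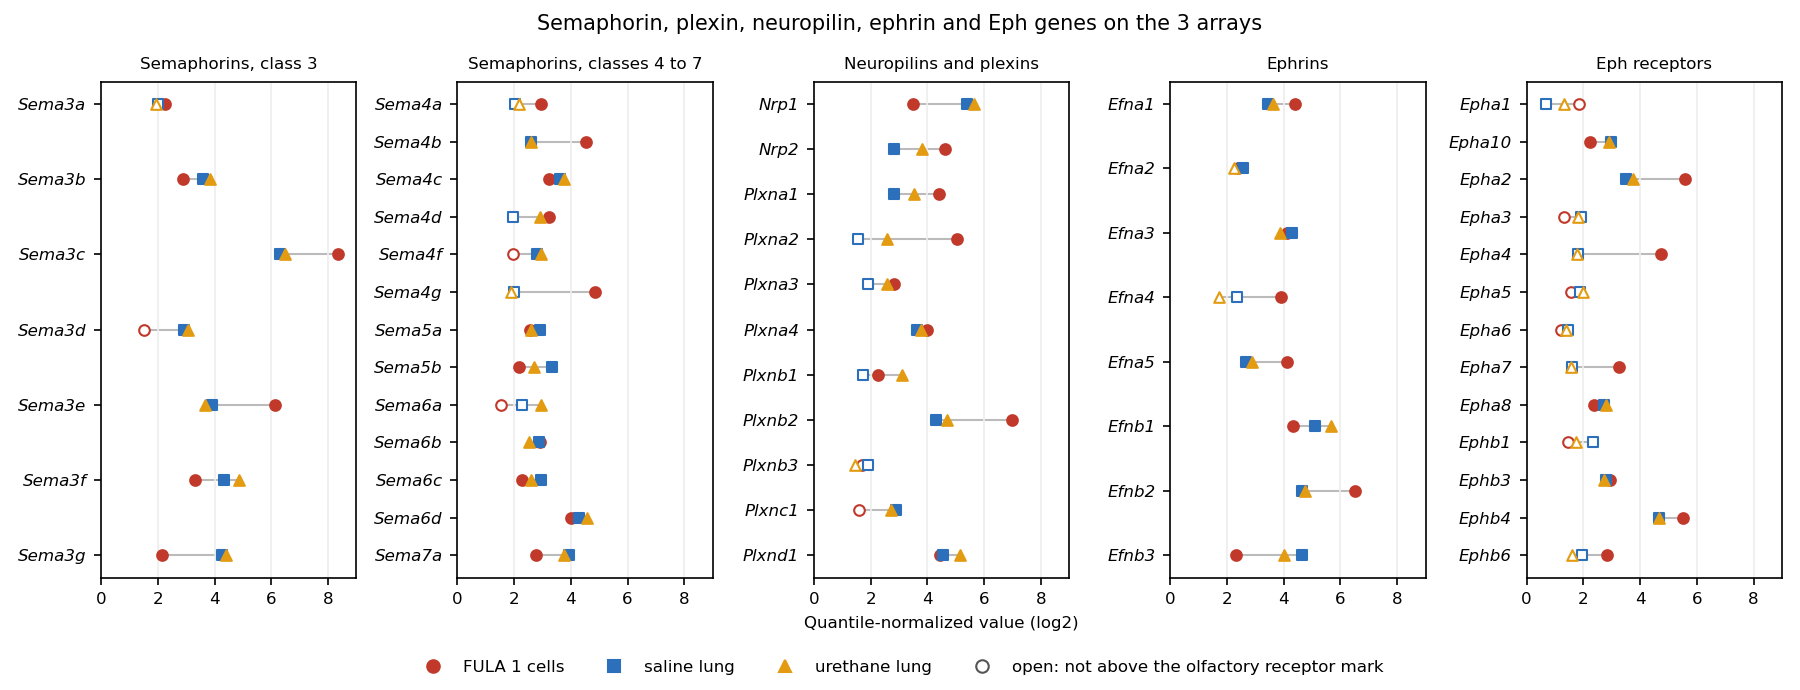
Quantile-normalized value (log2, horizontal axis) of each of the 52 genes on the FULA 1, saline lung and urethane lung arrays, in 5 panels by family; each point is 1 array, and open points are not above the olfactory receptor mark. The lungs lie close together for most genes, while FULA 1 stands to the right for genes such as Plxna2, Epha4 and Sema4g and to the left for Sema3g, Nrp1 and Efnb3.

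FULA 1 cells differed from the lungs gene by gene rather than as a block. Against the saline lung 15 of the 52 genes were called higher and 8 lower, and against the urethane lung 13 were higher and 8 lower. Among the largest differences with both values above the mark were those of the plexin Plxnb2 and the secreted Sema3e on the higher side, and Efnb3, Sema3g and Nrp1 on the lower side. Both comparisons use the same FULA 1 array, so the 12 genes higher and the 6 lower in both are not independent findings; of all genes, 11% were higher and 9.16% lower in both. The share higher than in the saline lung was 28.8% of the 52, where 14.3% of all 22180 genes were called, and 33.3% of the 45 above the mark on at least 1 of the arrays compared, where 21.9% of the 14487 such genes were. The share lower was 15.4% of the 52 (13.2% of all genes) and 17.8% of the 45 (20.3% of such genes). Against the urethane lung 25.0% of the 52 were higher (13.6% of all genes), or 28.3% of the 46 above the mark (21.1% of the 14230 such genes). There 15.4% of the 52 were lower (11.5% of all genes), or 17.4% of the 46 (17.9% of such genes). The shares called lower lay near those of all genes.

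The median difference over the 52 genes was -0.04 against the saline lung and 0.21 against the urethane lung (log2), beside -0.11 and -0.08 over all genes. The balance of the calls depended on the scale. Of the calls, 65.2% were higher against the saline lung and 61.9% against the urethane lung. After a mere shift of each array to 1 median these shares were 86.2% (25 higher, 4 lower) and 82.1% (23 higher, 5 lower), and the genes' median difference was 0.94 and 0.78. Deposited values taken as they stand put 42 genes higher and 0 lower in each comparison. With percentile ranks in place of values, 12 genes were higher and 13 lower than in the urethane lung. As the only measure of error within an array, the differences from the probe sets of 1 gene were set against each other in genes with a pair of probe sets. Their gap had a median of 0.91 over 762 genes for FULA 1 against the saline lung, with a 90th percentile of 2.54, and 0.94 over 756 genes against the urethane lung, with a 90th percentile of 2.30. With bounds in place of values below the mark, 2 of the 52 genes differed by more than that percentile from the saline lung (Plxna2 and Plxnb2) and 4 from the urethane lung (Plxna2, Plxnb2, Sema3e and Sema4g).

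**Figure D2:**
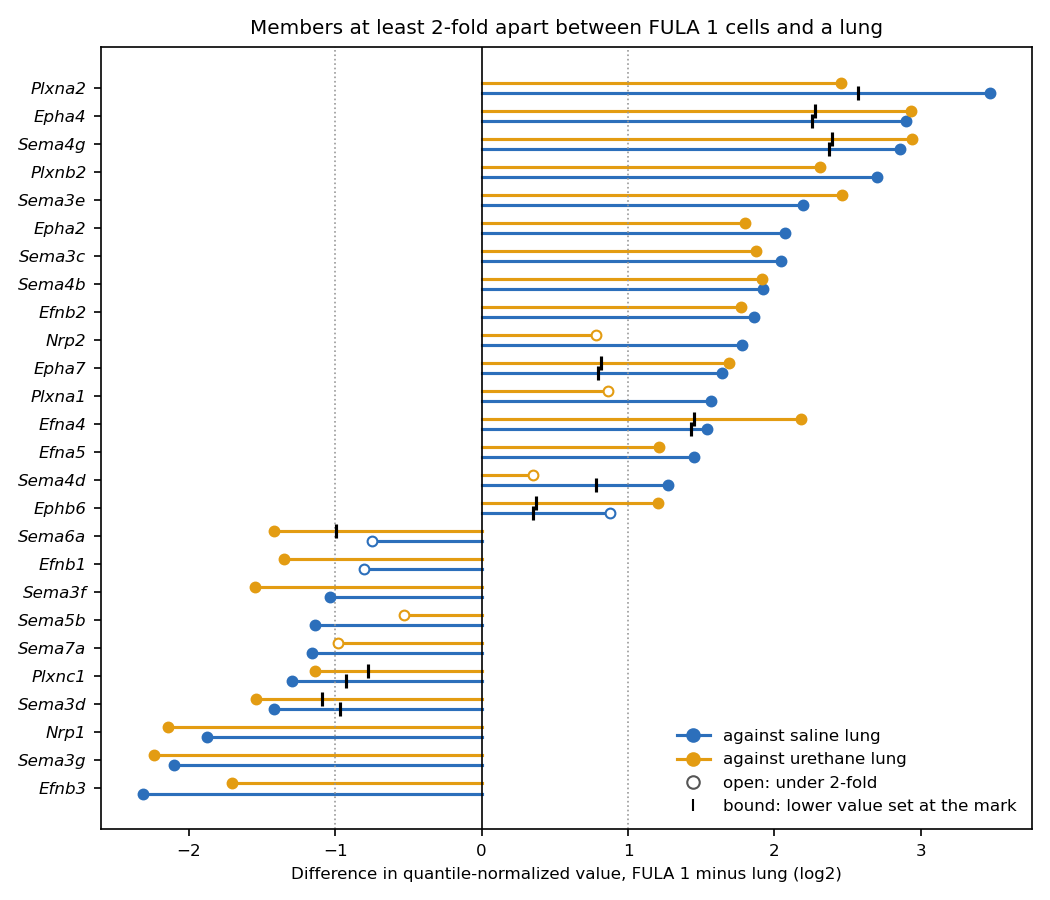
Difference in quantile-normalized value, FULA 1 minus lung (log2, horizontal axis), for the 26 genes called against at least 1 lung; blue points are against the saline lung, orange against the urethane lung, open points lie under 2-fold or below the mark, and black ticks give the bound with the lower value set at the mark. Dotted lines mark 2-fold. Plxna2 reaches 3.47 against the saline lung, but its bound is 2.57.

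Among the secreted class 3 semaphorins, FULA 1 was high in 2 and low in 3 of 7, or 28.6% and 42.9%. Of all genes, 14.3% were higher and 13.2% lower than in the saline lung, and 13.6% and 11.5% than in the urethane lung. With 7 genes these shares are not read as a trait of the class. Sema3c, which binds either neuropilin and guides cells in heart and vessel development, was at 8.37 on FULA 1, 6.32 in saline lung and 6.49 in urethane lung. Both lungs placed it near the top of their ranks (95.8 and 96.3) and FULA 1 nearer still, higher by 2.04 and 1.87 (log2, against saline and urethane lung). Sema3c was not called when 10 rank points replaced the fold. Sema3e, the ligand of Plxnd1 that needs no neuropilin, was at 6.12 on FULA 1, 3.93 in saline lung and 3.66 in urethane lung. Its difference was 2.20, or 4.58-fold, against the saline lung and 2.47, or 5.52-fold, against the urethane lung, and its rank was 95.2 against 82.1 and 79.2.

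The class 3 semaphorins lower in FULA 1 were Sema3g, Sema3f and Sema3d. Sema3g, known from vascular endothelium, was at 2.15 on FULA 1, 4.25 in saline lung and 4.39 in urethane lung. The lungs stood together and FULA 1 lay lower, with differences of -2.10 and -2.24, at rank 51.9 against 85.2 and 86.3. Sema3f, a ligand of Nrp2 that repels endothelial and tumour cells, was at 3.31, 4.35 and 4.86 in the same order. FULA 1 was again the lowest, with differences of -1.04 and -1.55. On the common-median scale neither was called, and the first turned to 0.33. Sema3d stood at 1.51, below the mark, on FULA 1, 2.93 in saline lung and 3.05 in urethane lung, so the differences had bounds of -0.97 and -1.09; the first is under 2-fold, and neither call held with the mark at the 99th percentile. Sema3b, which lies with Sema3f in a chromosome region often lost in human lung cancer, was at 2.89, 3.60 and 3.83 and was not called; Sema3a was above the mark on FULA 1 alone, at 2.26.

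The membrane-bound semaphorins were led by Sema4g and Sema4b. Sema4g, a transmembrane ligand of Plxnb2, was at 4.84 on FULA 1, 1.98 in saline lung and 1.90 in urethane lung, with both lungs below the mark. FULA 1 was higher by at least 2.37 and 2.39. Sema4b was at 4.52 on FULA 1 against 2.6 and 2.61 in the lungs, a difference of 1.92 and 1.91 (3.79-fold and 3.77-fold), but its saline value was shared by 400 probe sets and lay little above the mark. Sema4d (CD100), the ligand of Plxnb1 made by T cells and many tumours, was at 3.24 on FULA 1, 1.97 in saline lung and 2.89 in urethane lung. It was called against the saline lung, which lay below the mark, with a bound of 0.78, under 2-fold.

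Sema5b, Sema6a and Sema7a were lower in FULA 1 than in a lung. Sema7a, the GPI-anchored semaphorin that binds integrin beta 1 and Plxnc1, was at 2.78 on FULA 1, 3.94 in saline lung and 3.77 in urethane lung. The differences were -1.16 and -0.98, so the call was met against the saline lung alone. Sema5b was at 2.18, 3.32 and 2.71, called against the saline lung at -1.14. Neither of these calls held on the common-median scale. Sema6a was at 1.54, 2.29 and 2.96, and only the urethane value lay above its mark, where the bound on the difference was -0.997, just under 2-fold. The other 7 members of classes 4 to 6 were not called. Sema4a, which acts on T cells and vessels, came close, at 2.95 on FULA 1 and below the mark, at 2.03 and 2.18, on the lungs. Sema4f came close on the other side, at 1.96 on FULA 1, just below the mark, and 2.81 and 2.93 on the lungs. Sema6d, a ligand of Plxna1, was above the mark on every array at 4.0, 4.30 and 4.57, and Sema4c at 3.23, 3.63 and 3.77. Sema5a (2.54, 2.90 and 2.58), Sema6b (2.92, 2.87 and 2.51) and Sema6c (2.26, 2.93 and 2.58) lay nearer to the mark throughout.

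The receptors of the semaphorins split in the same manner. Nrp1, the neuropilin that also binds VEGF on endothelial cells, was at 3.51 on FULA 1, 5.39 in saline lung and 5.65 in urethane lung. The lungs were high and FULA 1 lower, with differences of -1.88 and -2.14 (3.67-fold and 4.42-fold). Neither was called on the common-median scale. Nrp2, the neuropilin of lymphatic vessels and of Sema3f, ran the other way against the saline lung: it was at 4.61 on FULA 1, 2.83 in saline lung and 3.82 in urethane lung. Its difference was 1.78 from the saline lung and 0.78 from the urethane lung, where it was not called. Nrp2 was the member whose lung values stood nearly 2-fold apart with both above the mark.

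Of the 9 plexins, Plxnb2, Plxna2 and Plxna1 were higher in FULA 1 than in the saline lung and Plxnc1 was lower. These were 33.3% and 11.1% of the plexins, beside 14.3% and 13.2% of all genes. Plxnb2, a receptor of Sema4c and Sema4g on epithelial cells, was at 7.0 on FULA 1, 4.29 in saline lung and 4.69 in urethane lung. FULA 1 was 6.52-fold and 4.97-fold higher (2.70 and 2.31), at rank 97.4 against 85.7 and 88.5, though by under 10 rank points against the urethane lung. Plxna2, a receptor of Sema6a and of class 3 semaphorins, was at 5.04, 1.57 and 2.58. The saline value lay below the mark, so FULA 1 was higher by at least 2.57 there; the urethane value lay just above the mark and was shared by 639 probe sets, and the difference from it was 2.46. Plxna1 was at 4.41, 2.84 and 3.54 and was called against the saline lung (1.57), but not after a lowess curve was subtracted.

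Plxna1 had 2 probe sets. The difference from the saline lung was 1.86 in the first; the second gave 1.28, but from a saline value of 1.13, below the mark, and was at 2.41 on FULA 1, so it supplies no measured size. Plxnc1, the Sema7a receptor of leukocytes, was at 1.59 on FULA 1, below the mark, and at 2.89 and 2.73 on the lungs. The bounds on its differences were -0.93 and -0.77, under 2-fold. Plxnd1, the endothelial receptor of Sema3e, was at 4.44 on FULA 1, 4.57 in saline lung and 5.17 in urethane lung, with differences of -0.13 and -0.73. Plxna3 (2.83, 1.91 and 2.58) and Plxna4 (3.99, 3.62 and 3.77) were not called either. Plxnb1 (2.28, 1.74 and 3.11) was not called, with a difference of -0.83 from the urethane lung. Of its 2 probe sets, the first was at 2.64 on FULA 1 and 4.24 in urethane lung, a difference of -1.60. The second was below the mark on all 3 arrays. FULA 1 was thus over 2-fold lower than the urethane lung in the first probe set, but not in the average.

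Among ephrins, Efnb2, Efna4 and Efna5 were higher in FULA 1 than in both lungs and Efnb3 was lower. Efnb2, the transmembrane ephrin that marks arteries, was at 6.52 on FULA 1, 4.66 in saline lung and 4.75 in urethane lung. FULA 1 was higher by 1.86 and 1.77, though by under 10 rank points. Efna4, a GPI-anchored ephrin, was at 3.90 on FULA 1 and below the mark on both lungs (2.36 and 1.72), hence higher by at least 1.43 and 1.45. Efna5 was at 4.11, 2.66 and 2.89, higher by 1.45 and 1.21, which was not called after the lowess step. Efna1, Efna3 and Efna4 are neighbours on chromosome 3 with no protein-coding gene between them, and the others of that run were not called: Efna1, the main ligand of Epha2, was at 4.41, 3.45 and 3.62, and Efna3 at 4.11, 4.30 and 3.86. Efnb3, known from midline axon guidance, was at 2.32 on FULA 1, 4.63 in saline lung and 4.03 in urethane lung. FULA 1 was the lowest, with differences of -2.31 and -1.71 (4.96-fold and 3.26-fold). Efnb1 was at 4.32, 5.12 and 5.67, a difference of -1.35 from the urethane lung and of -0.80, not called, from the saline lung. The Efnb1 call did not hold on the common-median scale, where the difference was 0.32.

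With probe sets averaged, no Eph receptor was called lower in FULA 1, and 3 of the 13 were higher than in both lungs: Epha2, Epha4 and Epha7. Of all genes, 13.2% were called lower than in the saline lung and 11.5% than in the urethane lung. The share of all genes higher than in both was 11%. Only 8 of the 13 receptors lay above the mark on an array compared, so no trait of the family is read from these counts. Epha2, an epithelial receptor often raised in carcinomas, was at 5.57 on FULA 1, 3.50 in saline lung and 3.77 in urethane lung. FULA 1 was 4.20-fold and 3.49-fold higher (2.07 and 1.80), at rank 93.3 against 77.2 and 80.4. Epha4, which binds ephrins of both classes, was at 4.72 on FULA 1 and at 1.82 and 1.79, below the mark, on the lungs. It was higher by at least 2.26 and 2.28, at rank 88.8 against 41.2 and 40.2. Epha7 was at 3.26, 1.62 and 1.57, with bounds of 0.80 and 0.82, under 2-fold. Ephb6, which lacks kinase activity, was at 2.82, 1.94 and 1.61 and was called against the urethane lung, with a bound of 0.37. Ephb4, the venous partner of Efnb2, was at 5.51, 4.66 and 4.66, a difference of 0.84 and 0.85 that did not reach 2-fold. The other receptors above the mark were not called: Ephb3 was at 2.94, 2.81 and 2.74, Epha8 at 2.37, 2.72 and 2.80, and Epha10 at 2.22, 2.98 and 2.89. Ephb1, below the mark on every array as averaged, had 2 probe sets. The first was at 1.37 on FULA 1 and at 2.49, just above the mark, in saline lung, a difference of -1.12. The second was below the mark on all 3 arrays and differed by -0.63. Over all 19 genes above the mark on some array but called in no comparison, differences ran from -0.86 to 0.96 against the saline lung and from -0.97 to 0.85 against the urethane lung.

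Markers of other cell types differed between the arrays as well, and in bulk RNA fewer cells of a type and less RNA per cell cannot be told apart. All 14 endothelial markers lay above the mark on both lungs, at percentile ranks from 59.7 to 99.1 in saline lung and with a low of 70.4 in urethane lung. On FULA 1 9 of the 14 did, at ranks from 29.6 to 88.0, with Pecam1 at 52.3 and Cdh5 at 50.3; their median difference from the saline lung was -3.69. Of the members tied above to vessels, Sema3g, Nrp1 and Sema3f were lower in FULA 1 too, but others were not. Efnb2 was higher by 1.86 and 1.77 (against saline and urethane lung), and Ephb4 by 0.84 and 0.85, not called. Sema3c was higher by 2.04 and 1.87, and Nrp2 by 1.78 and 0.78, the latter not called. Sema4a, below the mark on both lungs, was higher with bounds of 0.49 and 0.51, not called. Plxnd1 differed by -0.13 and -0.73, not called. The part of endothelial cells in any of these values was not tested. Of the fibroblast markers 7 of 10 were lower than in the saline lung (median difference -2.47) and 1, Npnt, was higher, by 1.42. Those of smooth muscle and pericytes were lower in 7 of 9 (-2.03). T cell markers were above the mark in 0 of 5 on FULA 1 and 2 of 5 on each lung. Macrophage markers were in 4 of 10 on FULA 1, 7 of 10 in saline lung and 8 of 10 in urethane lung, beside the lower Plxnc1 and Sema7a; their part in these was likewise not tested. The cell division list was higher in FULA 1, in 7 of 7 genes. Between the lungs the endothelial list had a median difference of -0.03 with 0 of 14 genes called. The markers of cardiac muscle of the pulmonary veins had -0.93, with 2 of 6 lower in the urethane lung, those of Schwann cells and neurons -0.69, with 1 of 6 lower, and those of neutrophils -0.35, with 1 of 6 lower. The cell division list had -0.44, with 1 of 7 lower. Alveolar type II markers had 0.28, with 1 of 10 higher, and ciliated markers 0.33, with 0 of 6 called. The part of these in the differences between the lungs was not tested.

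Upstream sequence is shown for members that FULA 1 held higher or lower than both lungs under 7 alternatives: common median, FULA 1 quantiles, lowess, rank points, values held at the mark, a stricter mark, and the highest probe set. There were 9 such genes (Efna4, Efnb3, Epha2, Epha4, Plxna2, Sema3e, Sema3g, Sema4b and Sema4g), 7 of them with 1 start site in the RefSeq promoter table of GRCm38.p6. The 9 genes have 1 probe set each, so the highest probe set rule left their values as they were. The build behind the probe sets is not named in the labels, and the sequences serve to show the genes' start regions, not probe positions. The 250 bases before the start, 5′ to 3′ on the gene's strand, are printed for the 3 with the largest differences, for Epha2, and for Sema3g, the lower gene of the 7. Capitals mark matches on either strand. The GC box was searched as GGGCGG, the AP-1 motif was searched as TGANTCA, the TEAD motif was searched as GGAATG, the E-box was searched as CACGTG, and the TATA box was searched as TATAAA. These motifs do not contain each other. Plxna2 is chr1:194619579-194619828 on the + strand, Epha4 chr1:77515089-77515338 on the - strand, Sema4g chr19:44989094-44989343 on the + strand, Epha2 chr4:141300971-141301220 on the + strand and Sema3g chr14:31217623-31217872 on the + strand.
Plxna2: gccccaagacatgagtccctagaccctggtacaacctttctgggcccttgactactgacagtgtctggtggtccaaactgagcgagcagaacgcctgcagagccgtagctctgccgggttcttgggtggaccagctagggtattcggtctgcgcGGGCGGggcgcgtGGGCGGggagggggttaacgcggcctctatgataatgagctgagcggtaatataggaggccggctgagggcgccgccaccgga
Epha4: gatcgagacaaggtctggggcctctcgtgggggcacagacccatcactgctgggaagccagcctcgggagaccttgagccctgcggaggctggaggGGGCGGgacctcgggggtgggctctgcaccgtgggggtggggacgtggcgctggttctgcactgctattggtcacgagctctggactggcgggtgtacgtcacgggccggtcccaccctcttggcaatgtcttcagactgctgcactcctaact
Sema4g: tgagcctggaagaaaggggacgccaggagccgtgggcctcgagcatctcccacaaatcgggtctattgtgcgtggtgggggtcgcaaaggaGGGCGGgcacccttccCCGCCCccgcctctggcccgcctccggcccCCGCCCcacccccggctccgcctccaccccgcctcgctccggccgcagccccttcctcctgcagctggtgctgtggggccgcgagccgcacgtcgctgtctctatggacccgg
Epha2: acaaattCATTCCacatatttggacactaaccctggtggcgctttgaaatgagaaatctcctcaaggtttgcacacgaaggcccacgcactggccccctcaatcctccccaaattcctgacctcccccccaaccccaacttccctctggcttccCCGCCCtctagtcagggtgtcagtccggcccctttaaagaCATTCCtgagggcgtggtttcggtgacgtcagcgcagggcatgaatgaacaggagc
Sema3g: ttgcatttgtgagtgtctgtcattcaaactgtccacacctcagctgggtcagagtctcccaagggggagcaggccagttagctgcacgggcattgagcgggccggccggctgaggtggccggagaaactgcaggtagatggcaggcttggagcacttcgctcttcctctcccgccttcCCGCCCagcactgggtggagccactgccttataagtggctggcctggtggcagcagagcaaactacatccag

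These 5 hold the GC box, with 3 matches in Sema4g, 2 in Plxna2 and 1 in each of the others; of the 7 genes, Sema3e, not printed, holds 2 and Efna4, not printed, holds 0. Epha2 alone of the 5 holds the TEAD letters, in 2 places. Such GC boxes were common in the family: 76.7% of the 60 promoters of the 46 matched members held one, against 32.7% of all 32851 promoters in the table, and the median count of CpG was 15.5 against 6 in 250 bases. Among the 12 genes higher in FULA 1 than in both lungs, 14 of 15 promoters held a GC box, and of the 6 lower genes 4 were matched, with a GC box in 3 of 4 promoters. The AP-1 letters were in 5.0% of the members' promoters and 6.75% of all, the TEAD letters in 11.7% and 12.6%, the E-box in 5.0% and 6.02%, and the TATA box in 1.67% and 12.4%. A match describes letters in this window and is no evidence of binding.

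Ligands and receptors were also read as pairs, from 25 textbook pairs of which 24 could be read. Both partners lay above the mark in 17 pairs on FULA 1, 13 in saline lung and 16 in urethane lung, and 11 pairs were complete on all 3. These 11 included Efnb2 with Ephb4, Efna1 with Epha2, Sema3e with Plxnd1, Sema3c with Nrp1 and with Nrp2, and Sema4c with Plxnb2. On FULA 1 but on neither lung, both partners were above the mark for Sema4g with Plxnb2, Efna5 with Epha4, Efna2 with Epha4, Sema4a with Plxnd1 and Sema3a with Nrp1. In these pairs the ligand or Epha4 was the partner below the mark on the lungs, or, for Efna2 with Epha4 on the urethane lung, both were. The mark itself was lower on FULA 1 (1.96, against 2.46 in saline and 2.44 in urethane lung). There 58.2% of all genes passed it, against 49.5% and 48.9% in the lungs. On FULA 1 Sema3a (2.26) and Efna2 (2.39) lay below the lungs' marks, so their pairs depend on the difference in the mark. Efna2 was higher in saline lung (2.56) than on FULA 1. Sema7a with Plxnc1 and Sema3d with Nrp1 were complete on both lungs and not on FULA 1. Presence of both RNAs on an array does not show which cells carried them.

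**Figure D3:**
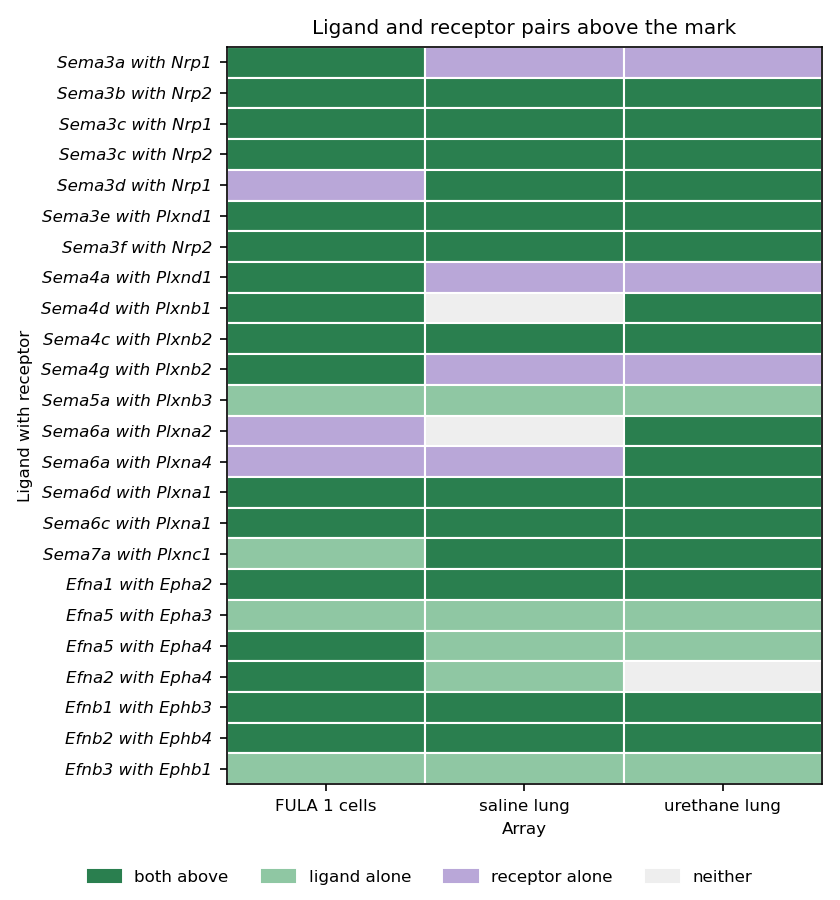
Ligand and receptor pairs (rows) on the 3 arrays (columns); colour shows whether both, the ligand alone, the receptor alone or neither lay above the olfactory receptor mark. Of 24 pairs, 17 were complete on FULA 1, 13 in saline lung and 16 in urethane lung.

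Between the lungs the guidance genes were close. Of the 52 genes 2, the plexins Plxnb1 and Plxna2, were called higher in the urethane lung and 0 lower; the shares of 3.85% and 0% stand beside 1.81% and 0.703% of all genes. Over genes above the mark on at least 1 lung, they were 5.13% and 0% of 39, beside 3.33% and 1.3% of 12036. The median difference was 0.10 over the 52 genes and -0.06 over all. Differences of the same genes ran from -0.64 (Efna4, below the mark on both lungs) to 1.37. The gap between probe sets of 1 gene had a median of 0.40 over 612 genes and a 90th percentile of 1.10 in this comparison. Plxnb1 lay beyond it at 1.37, but not by its bound, and by bounds 0 of the 52 genes did.

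Plxnb1, the Sema4d receptor, was at 1.74 on the saline lung, 3.11 on the urethane lung and 2.28 on FULA 1. The saline value lay below the mark, and the bound on the difference was 0.64, under 2-fold. Of its 2 probe sets, the first was at 4.24 on the urethane lung and at 1.91, below the mark, on the saline lung. The second was below the mark on both lungs, at 1.98 and 1.57, so the call rests on the first probe set. Plxna2 met the threshold by a small margin, with a bound of 0.11, since its saline value lay below the mark and its urethane value on a tie of 639 probe sets. Neither call held after the lowess step, with values held at the mark, or with the mark at the 99th percentile.

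The other receptors of semaphorins were not called between the lungs. Nrp2 differed by 0.99 and Nrp1 by 0.27. Of the plexins, Plxna1 differed by 0.70, Plxnd1 by 0.60, Plxnb2 by 0.39, Plxna4 by 0.14 and Plxnc1 by -0.15. Plxna3, below the mark on the saline lung, differed by 0.67 with a bound of 0.11, and Plxnb3 was below the mark on both lungs. The probe set of Plxna1 above the mark on both lungs differed by 1.02. Sema4d was at 1.97 in saline lung and 2.89 in urethane lung, a difference of 0.92 with a bound of 0.43, and Sema6a differed by 0.67 with a bound of 0.49. Efnb1 was higher in the urethane lung by 0.55 and Sema3f by 0.51; Sema5b differed by -0.61 and Efnb3 by -0.60. Eph receptors whose averaged value lay above the mark on a lung differed by 0.27 or less in size, Epha2 being the largest.

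**Figure D4:**
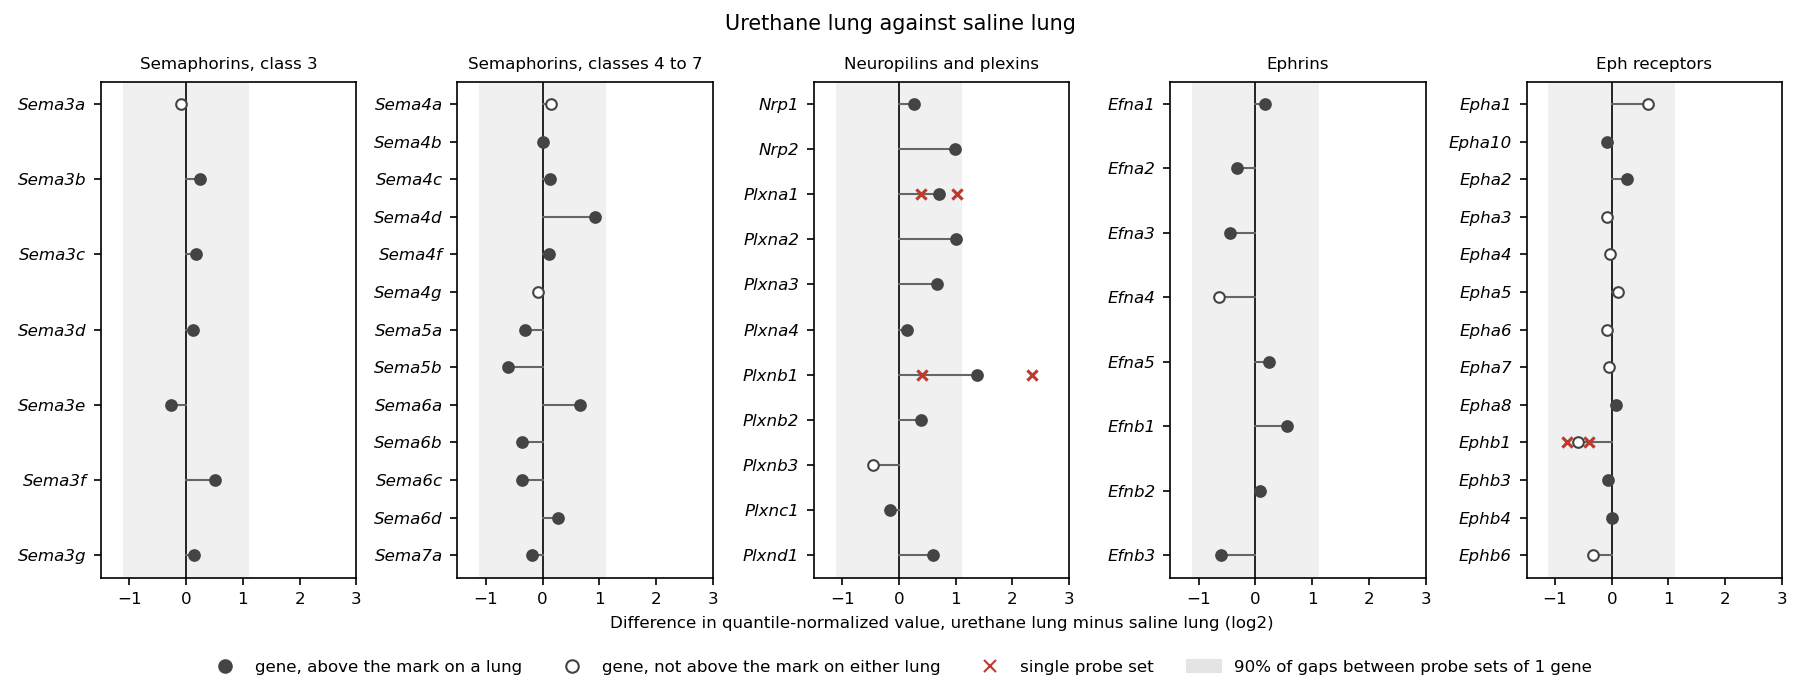
Difference in quantile-normalized value, urethane lung minus saline lung (log2, horizontal axis), for the 52 genes in 5 panels; filled points lie above the mark on at least 1 lung, red crosses are the probe sets of the 3 genes that have 2, and the grey band spans 90% of the gaps between probe sets of 1 gene (1.10 either way). Plxnb1 at 1.37 lies outside the band, on the strength of 1 of its probe sets, while its bound of 0.64 lies inside.

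Resolution was limited on the lungs by tied values. Of the 49 genes with 1 probe set, 15 on the urethane lung and 7 on the saline lung held a value that at least 100 probe sets shared, against 0 on FULA 1. On the urethane lung Plxna2, Plxna3, Sema5a and Sema6c shared 2.58, Efna5, Epha10 and Sema4d shared 2.89, and Epha2, Plxna4, Sema4c and Sema7a shared 3.77.

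Genes that act with these families are given from 3 lists drawn up by textbook role, with earlier results of these arrays known. Of 39 measured partners of semaphorins and plexins, FULA 1 had 5 higher and 10 lower than the saline lung (12.8% and 25.6%, beside 14.3% and 13.2% of all genes; median -0.49, beside -0.11), and 4 and 9 than the urethane lung (10.3% and 23.1%, beside 13.6% and 11.5%; median -0.36, beside -0.08). The highest were Itgb1, the integrin chain bound by Sema7a, at 2.38 and 1.30, Met, the kinase that associates with class B plexins, at 2.28 and 1.92, and Rnd3, a plexin-binding GTPase, at 2.06 and 1.99. The lowest were Plxdc2 (bounds of -3.93 and -3.65), the VEGF receptor Kdr at -3.99 and -3.71, which is also in the endothelial list, and the myeloid adaptor Tyrobp (bounds of -3.48 and -3.05). Whether Plxdc2 acts in semaphorin or plexin signalling was not checked. Between the lungs Itgb1 alone of these 39 was called, at 1.07.

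Of 39 measured partners of ephrins and Ephs, FULA 1 had 6 higher and 7 lower than the saline lung (15.4% and 17.9%; median 0.26), and 6 and 5 than the urethane lung (15.4% and 12.8%; median 0.07). These shares lie near those of all genes. The highest were Chn2, a Rac GTPase-activating protein, at 2.86 and 2.72, Rin1 at 1.67 against the urethane lung and at least 2.10 against the saline lung, and Adam10, the protease that sheds ephrins, at 2.16 and 2.06. The lowest were the vascular exchange factor Arhgef15 at -3.44 and -3.22, Rgs3 at -2.05 and -2.09, and the PI3-kinase subunit Pik3r1 at -1.94 and -2.12. In the list of Slit, Robo, netrin and RGM genes, 5 of 27 were higher and 5 lower than in the saline lung, and 4 and 4 than in the urethane lung (18.5% each and 14.8% each, with medians of -0.17 and -0.28). Neo1, the receptor neogenin, was higher by 3.24 and 2.75, the netrin receptor Unc5b by at least 2.48 and 2.5, and Srgap3 by at least 1.67 and 1.69. Draxin (-1.73 and -1.58), Ntn4 (-1.68 and -2.0) and Ntn1 (-1.57 and -1.56) were the lowest. Neither the ephrin list nor the Slit and netrin list had a call between the lungs.

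**Figure D5:**
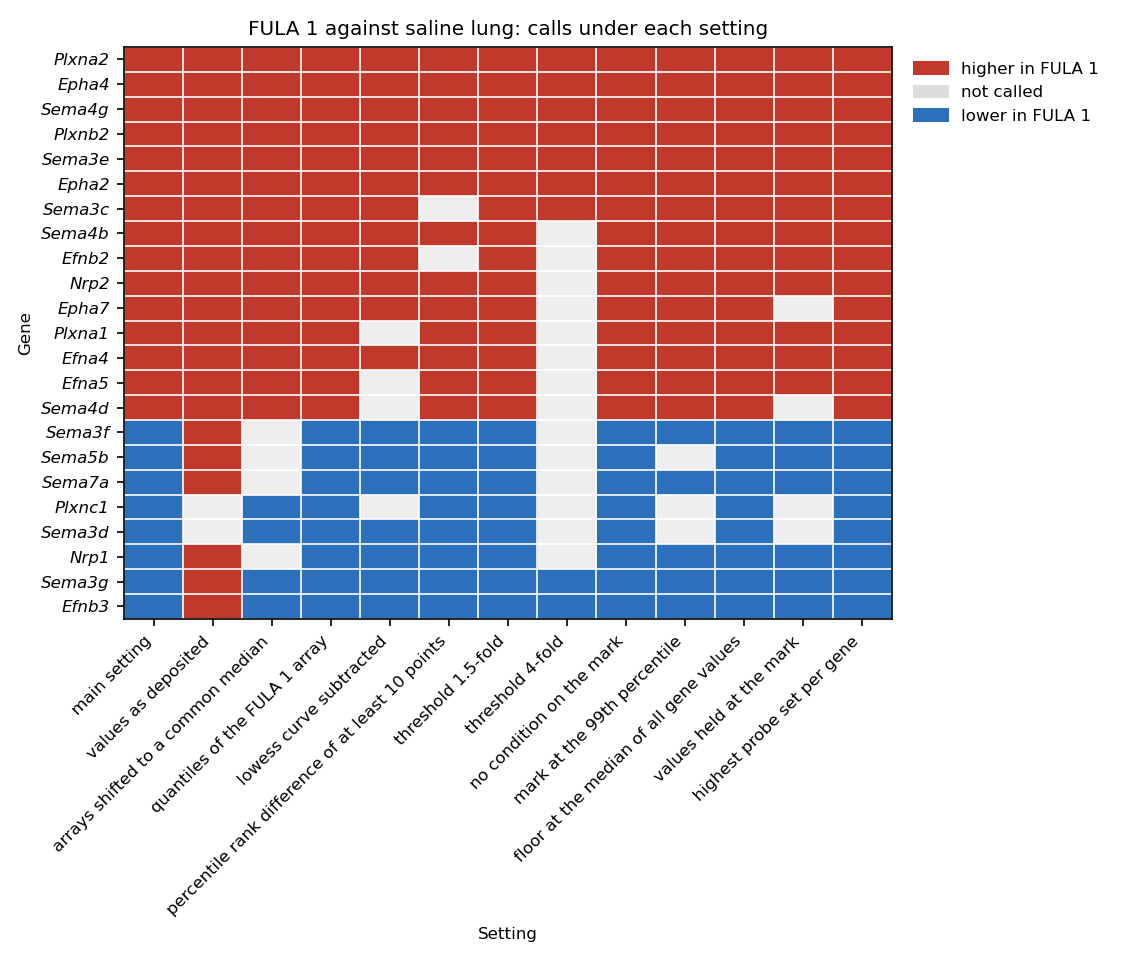
Calls for FULA 1 against the saline lung under the main setting and each alternative (columns) for the 23 genes called under the main setting (rows); red is higher in FULA 1, blue lower, grey not called. Plxna2, Epha4, Sema4g, Plxnb2, Sema3e and Epha2 are red in every column, whereas the lower genes turn red or grey with the values as deposited.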

How the data were processed

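RNA of 3 samples was measured on 1 array each. The authors deposited 1 log2 value per probe set and array; the submitters' processing notes name RMA, and the design text GeneSpring GX 12.5, with no further setting. No scanner file was analysed here. All 3 deposited columns were used. From the annotation 23521 probe sets carried 1 symbol, 1814 several and 16010 none; symbols were updated by Entrez identifier through RefSeq GRCm38.p6 (23328 matched, no member renamed). All 41345 probe sets were quantile-normalized to the mean of the 3 sorted arrays, tied values taking their mean, and the probe sets of a gene were averaged.

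Having 1 array in each group, the comparisons carry no test, and precision is limited by that number. The members, lists, threshold and mark were chosen with earlier results of these data known. All members may be named; of the partner lists the 3 highest and 3 lowest called were. Alternatives changed the scale, threshold, mark or probe-set rule (lowess span 0.3). The normalization and the fold threshold were run on simulated arrays with small noise and large planted differences in high values. That run covers neither the mark nor genes near it. Python 3.11.15, pandas 2.3.3, scipy 1.17.1 and statsmodels 0.14.6 were used. The upstream sequences come from the RefSeq promoter table.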

Additional observations from a re-analysis of the deposited data

How the results depend on the processing

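No paired analysis was possible because each group is 1 array, and for the same reason no replicate could be left out. Counts below are genes of the 52 called higher and lower for FULA 1 against the saline lung, FULA 1 against the urethane lung, and urethane against saline lung, in that order; the main counts were 15 and 8, 13 and 8, and 2 and 0. They became 42 and 0, 42 and 0, and 32 and 0 with the values as deposited, whose median difference over all genes was 4.80, 3.69 and 1.09. With arrays shifted to a common median they were 25 and 4, 23 and 5, and 1 and 0, and when each array took FULA 1's quantiles 19 and 12, 15 and 13, and 6 and 0. A lowess curve subtracted gave 12 and 8, 12 and 9, and 0 and 0, and a rank difference of 10 points 17 and 12, 12 and 13, and 6 and 1. At 1.5-fold the counts were 20 and 13, 18 and 14, and 8 and 2, and at 4-fold 7 and 2, 6 and 2, and 0 and 0. The mark at the 99th percentile gave 15 and 5, 13 and 5, and 0 and 0, values held at the mark 13 and 6, 11 and 6, and 0 and 0, and the highest probe set per gene 15 and 9, 13 and 9, and 3 and 0. A floor at the median of all gene values changed no count, and no condition on the mark changed 1, from 15 to 16 against the saline lung.

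With the values as deposited every lower call turned: against the saline lung Efnb3 to 3.32, Nrp1 to 4.34, Plxnc1 to 3.55, Sema3d to 3.37, Sema3f to 5.22, Sema3g to 3.40, Sema5b to 4.26 and Sema7a to 4.79, and against the urethane lung Efnb1 to 4.06, Efnb3 to 2.69, Nrp1 to 3.07, Plxnc1 to 2.42, Sema3d to 2.05, Sema3f to 3.50, Sema3g to 2.04 and Sema6a to 2.19. The deposited medians were 4.96 on FULA 1, 0.08 in saline lung and 1.22 in urethane lung. The part of these medians in the reversals was not tested. On the common-median scale Sema3f turned to 0.33 against the saline lung and Efnb1 to 0.32 against the urethane lung; the cause was not tested. Across 7 alternatives of scale, mark and probe-set rule, leaving aside the deposited values, the thresholds, the floor and the unconditioned count, 9 of 15 higher and 2 of 8 lower calls against the saline lung held in all, 7 of 13 and 2 of 8 against the urethane lung, and 0 of 2 between the lungs. For the rest the cause was not tested. Of the 7, the highest probe set rule leaves the values of the 49 genes with 1 probe set as they are. That rule and the FULA 1 quantiles each kept all 23, 21 and 2 calls of the 3 comparisons, so they narrow the set of calls no further.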
